A study of Mus musculus with 10 samples.

Results

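Mouse colon organoids that had lost Trp53 (KO) were compared with wild-type (WT) organoids, both grown in full medium, on 2 of the 10 arrays of the series. The 2 arrays were chosen by their labels, as the ones that carried RNA of KO organoids in 1 channel and of WT organoids in the other. Organoids are epithelial cultures that form in a matrix gel from crypts of the colon. KO cultures came from VillinCreERT2 x Trp53fl/fl mice, in which a tamoxifen-inducible recombinase is driven by the villin promoter of intestinal epithelium, and received 800 nM 4OH-tamoxifen for 2 days. They were then kept in Nutlin-3A, which stabilises p53 and so stops cells that still have it, over several passages until WT cultures given the same were lost. The selection cannot be told apart from the loss of Trp53. Both groups grew in medium with 0.328 nM surrogate Wnt, 3 µM CHIR-99021 (a GSK3 inhibitor that activates Wnt signalling), 25% R-spondin 1 conditioned medium, 100 ng/ml noggin, 50 ng/ml EGF and 0.5 µM A83-01, an inhibitor of the TGF-beta receptor. The medium is labelled as inducing regeneration. The labels do not say whether the WT cultures carried the Cre or floxed alleles or were given 4OH-tamoxifen.

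The array called A here set KO replicate 2 (Cy5) against WT replicate 1 (Cy3), and the array called B set WT replicate 2 (Cy5) against KO replicate 1 (Cy3). The other 4 organoid arrays joined the same 4 samples to 2 samples of KO organoids grown without surrogate Wnt and CHIR-99021 (KOWI), so that a loop over 6 samples also gave KO 1 against WT 1 and KO 2 against WT 2. Each gene thus had 4 ratios of KO to WT, all on the log2 scale: 2 measured within an array and 2 fitted through the loop. The fitted ratios draw on the direct arrays too, and each sample enters 2 of the 4, so the 4 are not independent. Replicate 1 was always labelled with Cy3 and replicate 2 with Cy5, so dye and replicate number cannot be told apart. The series' design text calls the replicates biological, but no label says whether they came from separate mice, and p-values reflect no more than the spread among these samples, part of which may be technical.

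The protein p53 is a transcription factor that is stabilised after DNA damage and other stress. It binds a paired, partly palindromic DNA element and raises the transcription of genes that halt the cell cycle, start cell death, repair DNA and limit p53 itself. It lowers many cell cycle genes indirectly, through Cdkn1a and repressor complexes that bind promoter elements such as the CHR. Colon epithelium renews from stem cells at the crypt base, whose progeny divide and become absorptive colonocytes or secretory goblet, enteroendocrine and tuft cells.

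In each channel 44.6% to 59.1% of spots exceeded background clearly enough to be called well above it by the scanner software. Precision is limited by how few arrays there were. The scanner software marked 0.808% and 2.18% of spots on the direct arrays as outliers, against 13.7% to 16.3% on the 4 arrays with KOWI. Of 14701 genes above background in a group, 9919 could be fitted over the whole loop and were tested, and 4782 were lost to outlier spots. All 16 general epithelium markers were well above background in every WT and KO channel. Of the markers of other cells, 5 of 15 for fibroblasts and smooth muscle, 2 of 10 for endothelium and 9 of 16 for immune cells were well above background in every such channel. The fibroblast markers Col1a1, Col3a1 and Dcn were not among them, while Ptprc, which marks leukocytes, was, at 0.53 on array A and 0.08 on array B. Of the 7 immune markers with both direct ratios, all were above WT on array A (median 0.388) and 4 on array B (median 0.0183), with Lyz2 the highest. Their part in the results was not tested. Across the 9871 tested genes with all 4 ratios, the log2 ratios had a standard deviation of 0.360 on array A and 0.528 on array B. Their correlation across genes was 0.107 between arrays A and B (Pearson, 9871 genes, which are not independent). The mean of the direct ratios and the mean from the indirect arrays correlated at 0.768. Both means combine the same 4 KO and WT samples, so this value reflects repeated measurement and not agreement between replicates. Arrays A and B share no sample. In these bulk samples, fewer cells of a type and less RNA per cell cannot be told apart.

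Trp53 itself, which tests the labels, was below WT in all 4 ratios. Log2 KO/WT was -1.02 on array A, -0.66 on array B, -1.06 between the replicates 1 and -0.59 between the replicates 2 (fitted -0.83, SE 0.19). Its probe, at mm9 chr11:69403134-69403193 on the plus strand, was well above background in all 4 WT channels and in 0 of 4 KO channels. The dim KO signal limits these ratios, so no fold is given for the gene. Whether the probe lies in the deleted exons was not checked.

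No gene passed the test of KO against WT. With limma and Benjamini-Hochberg adjustment, 0 of 9919 genes (a percent of 0) had an adjusted p under 0.05, and the smallest adjusted p was 0.0614, for Reg3b. At an unadjusted p under 0.05 there were 400 genes above and 144 below WT, 544 in all. With no true difference, 496 of the 9919 would be expected at that threshold. Values below are therefore descriptions, and their support is the number of ratios on 1 side of 0. All 4 ratios were positive for 20.6% of genes and negative for 13.3%. The median fitted log2 KO/WT of all genes tested was 0.0539, and 61.0% were positive.

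Genes beyond 2-fold in all 4 ratios were rare: 17 above WT (0.172% of genes) and 12 below (0.122%). Among those above, the antimicrobial lectin Reg3b stood highest. Its log2 KO/WT was 1.84 on array A, 3.67 on array B, and 2.67 and 2.75 in the fitted replicates (fitted 2.71, SE 0.16, limma adjusted p = 0.0614, 6.55-fold). Lyz1, the lysozyme of Paneth cells, was at 1.79 and 1.89 on the direct arrays (fitted 1.74, SE 0.56), and its close paralog Lyz2, the lysozyme of macrophages, at 1.27 and 1.76. Smoc2, a secreted matrix protein of crypt stem cells, was at 1.90 and 2.66 (fitted 2.16, SE 0.45). That every KO sample lay above the WT samples it was paired with for Reg3b, Lyz1 and Smoc2 follows from how this class was chosen.

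Aldh1a3, which makes retinoic acid, was at 1.90 on array A and 2.34 on array B (fitted 2.09, SE 0.71). Rbp4, the retinol carrier, was at 1.81 and 2.29 (fitted 1.51, SE 0.26). Both genes act in retinoid handling, and both direct ratios of each exceeded 3-fold. Ccn3, a secreted matricellular protein, was at 3.06 and 1.22 (fitted 2.13, SE 0.28), and Maob, a mitochondrial amine oxidase, at 3.05 and 1.10 (fitted 1.93, SE 0.52). St8sia4, a polysialyltransferase, was at 1.11 and 2.88 (fitted 1.87, SE 0.16). The histone gene H2bu2 was at 1.62 and 2.29 (fitted 1.59, SE 0.19), and 3110040M04Rik at 1.59 and 2.32 (fitted 1.84, SE 0.43). The sizes of Ccn3, Maob and St8sia4 differed by more than 3-fold between the arrays. Both arrays placed them above WT, as the choice of this class requires. Reg3b and St8sia4 were well above background in 3 of 4 WT channels and H2bu2 in 2, so their ratios and folds carry the error of dim WT spots. These 3 genes passed the filter through KO and not through WT, which favours values above WT.

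Cdkn2a stood out among the cell cycle inhibitors. It encodes p16, an inhibitor of the kinases CDK4 and CDK6, and p19ARF, which blocks Mdm2 and thereby stabilises p53. Its log2 KO/WT was 1.87 on array A, 2.13 on array B, 1.58 in replicate 1 and 1.81 in replicate 2 (fitted 1.70, SE 0.17, limma adjusted p = 0.170, 3.24-fold). The range of the 4 ratios was narrow beside their size. Which of the 2 transcripts the probe reads was not checked. Over the list of 7 tested CDK inhibitors the fitted median was 0.06, and its sign changed in 4 of 20 alternative settings. Cdkn1a, which encodes p21, was the lowest of them, at 0.14 on array A and -0.99 on array B (fitted -0.27, SE 0.23). Among the 10 tested members of the Trp53 family and its regulators (fitted median 0.25, and 0.0849 on the direct arrays alone), Cdkn2a was the highest and Trp53 the lowest.

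Below WT, Ereg stood lowest. It encodes epiregulin, a growth factor that activates the EGF receptor. Its log2 KO/WT was -2.98 on array A, -2.85 on array B, -2.31 in replicate 1 and -3.48 in replicate 2 (fitted -2.90, SE 0.52, limma adjusted p = 0.393, 7.44-fold lower). Mgmt, which removes alkyl groups from guanine in DNA, was at -2.09 and -2.08 on the direct arrays (fitted -2.12, SE 0.26). Both genes were more than 4-fold below WT in each direct pairing. Of the other genes in this class, 5 were p53 targets (Phlda3, Ccng1, Zfp365, Psrc1 and Zmat3) and 4 belong to absorptive cells or to enzymes of foreign compounds (Cubn, Tmigd1, Cyp2b10 and Ces2e). The last, 1700007K13Rik, was at -2.10 and -1.60 (fitted -1.72, SE 0.19). Ereg and Mgmt were well above background in 3 of 4 KO channels and 1700007K13Rik in 2, so their ratios and folds carry the error of dim KO spots. They passed the filter through WT and not through KO, which favours values below WT.

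**Figure D1:**
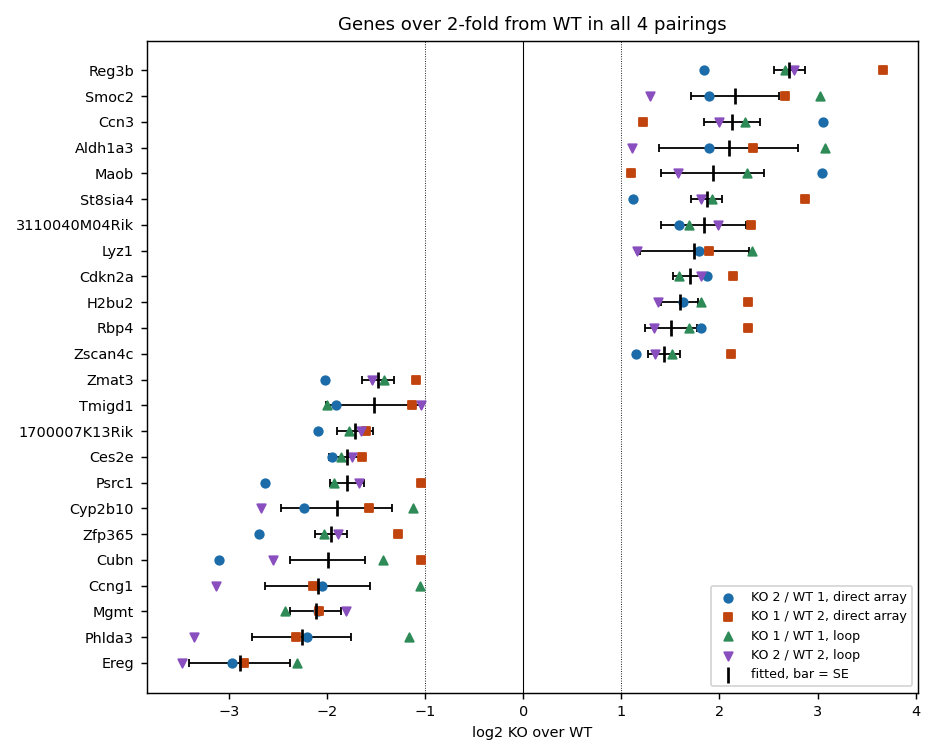
Log2 KO over WT (x axis) for the 12 highest and 12 lowest genes among those beyond 2-fold in all 4 ratios. Coloured points are the 2 direct arrays and the 2 loop-fitted replicates, black ticks the fitted value with its standard error (bar), and dotted lines mark 2-fold; Reg3b is highest at 2.71 and Ereg lowest at -2.90.

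Direct targets of p53 were considered by role. The first list held genes of cell cycle arrest and of feedback on p53. Of its 16 tested members, 15 had a fitted value below 0 and 1 above, with a median of -0.23 against 0.05 over all genes. On the direct arrays 21 members were measured; 14 (66.7%) were below WT on both and 0 above on both, against 20.8% and 24.8% of 14159 genes. The medians over those 21 were -0.205 on array A and -0.425 on array B. For the 16 tested members they were -0.62 and -0.48. The median was -0.129 on the indirect arrays alone (14 members), and the fitted median -0.471 for probes under a log2 intensity of 14 (12 members). Phlda3, which restrains AKT at the membrane, was the lowest: -2.21 on array A, -2.32 on array B, -1.17 in replicate 1 and -3.36 in replicate 2 (fitted -2.26, SE 0.50). Ccng1, cyclin G1, which recruits a phosphatase to Mdm2, was at -2.05, -2.14, -1.06 and -3.14 (fitted -2.10, SE 0.53). For both genes the direct arrays gave nearly the same value, and the fitted ratio was further below WT between the replicates 2 than between the replicates 1.

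Psrc1, a spindle protein, was at -2.64 on array A and -1.04 on array B (fitted -1.80, SE 0.17). Zmat3, an RNA-binding splicing factor, was at -2.03 and -1.10 (fitted -1.48, SE 0.16), and Cgref1 at -1.62 and -0.61 (fitted -1.02, SE 0.21). Trp53inp1, which links p53 to autophagy, was at -0.97 and -1.02 (fitted -0.75, SE 0.18), and Sesn1, a stress-induced restraint on mTORC1, at -1.25 and -0.26 (fitted -0.68, SE 0.25). All of these lay below WT in every pairing. Mdm2, the ubiquitin ligase that degrades p53 and one of its best known targets, was not fitted over the loop and was at -0.33 and -0.40 on the direct arrays. The highest member was Ppm1d, a phosphatase that resets p53 signalling, at -0.39 and 0.46 (fitted 0.03, SE 0.20). A limma fit that counts the 6 arrays as independent, although they share samples, called 4.73% of all genes above and 1.62% below WT (adjusted p under 0.05), where the fit over samples called 0. Of the 16 members it called 7 below WT and 0 above.

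The death list was less uniform. Of 13 tested members 7 had a fitted value above 0 and 6 below, and the median, 0.15, changed sign in 7 of 20 alternative settings. Bax, which permeabilises mitochondria, was the lowest, at -0.87 on array A and -0.65 on array B (fitted -0.55, SE 0.21). Fas, a death receptor, was measured only on the direct arrays, at -0.66 and -0.63. Bbc3, which encodes PUMA, was at -0.47 and -0.42 (fitted -0.32, SE 0.23), whereas Pmaip1, which encodes NOXA, was the highest at 0.76 and -0.05 (fitted 0.40, SE 0.26). Perp, a desmosome protein, was at -0.35 and -0.28 (fitted -0.33, SE 0.18). On the direct arrays 8 of 17 members (47.1%) were below WT on both and 5 (29.4%) above on both, against 20.8% and 24.8% of all genes. The median of the mean direct ratio over those 17 was -0.114.

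In the list of stress, metabolism and repair targets, 13 of 23 tested members were below 0 (median -0.16, but 0.0228 without KO replicate 2). On both direct arrays 15 of 28 (53.6%) were below WT and 4 (14.3%) above, against 20.8% and 24.8% of all genes. Zfp365, which guards telomeres and fragile sites, was the lowest, at -2.70 on array A and -1.28 on array B (fitted -1.96, SE 0.16). Its probe was well above background in 4 of 4 WT channels and 1 of 4 KO channels. It thus passed the filter through WT and not through KO, which favours a value below WT. Ephx1, an epoxide hydrolase that is also a phase II enzyme, was at -1.77 and -1.73 (fitted -1.75, SE 0.70). The loop replicates of Ephx1 were far apart, at -3.15 and -0.35. Slc19a2, a thiamine transporter, was at -1.001 and -0.59 (fitted -0.80, SE 0.17), and Ak1, adenylate kinase, at -0.75 and -0.45 (fitted -0.60, SE 0.19). Dglucy, a mitochondrial D-glutamate cyclase, had no loop fit and was at -2.75 and -2.18. Ikbip was the highest at 0.08 and 1.12 (fitted 0.60, SE 0.25). Ddb2, a sensor of DNA damage in nucleotide excision repair, was at 0.13 and 0.61 (fitted 0.26, SE 0.18) and was above WT in every pairing.

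**Figure D2:**
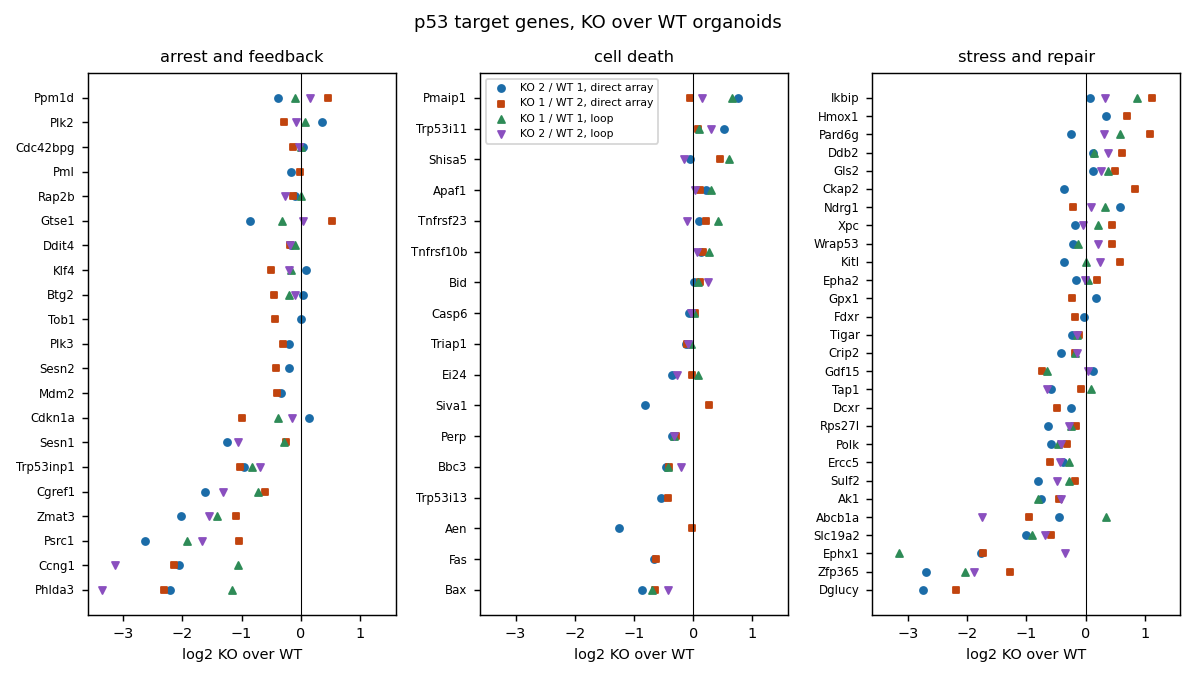
Log2 KO over WT (x axis) of p53 target genes with both direct ratios, in 3 panels by role (arrest and feedback, cell death, stress and repair), each gene on a row ordered by the mean of its direct ratios. Circles and squares are the direct arrays and triangles the loop-fitted replicates; Phlda3, Ccng1, Psrc1, Zmat3, Zfp365, Ephx1 and Dglucy lie left of -1 on both direct arrays.

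Promoters were read from RefSeq (GRCm38.p6), from 250 bases before to 50 after each annotated start, and searched for the p53 element. The element searched was the p53 consensus, with both of its repeats present, up to 3 mismatches in all, the core C and G of each repeat kept, and a spacer of 0 or 1 base; the motif reads the same on either strand. It occurred in 17 of 62 p53 targets with a promoter (27.4%) and in 884 of 27025 genes overall (3.27%). The 4 matches shown belong to p53 targets with different values. Capitals mark the matched element, and coordinates are on GRCm38.p6.

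Ccng1 (chr11:40755447-40755496, minus strand): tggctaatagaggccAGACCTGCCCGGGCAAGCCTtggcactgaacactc
Zfp365 (chr10:67912691-67912740, minus strand): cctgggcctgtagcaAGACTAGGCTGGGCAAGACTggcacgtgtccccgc
Bax (chr7:45467064-45467114, minus strand): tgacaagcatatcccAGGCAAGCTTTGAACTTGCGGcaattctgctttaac
Cdkn1a (chr17:29090913-29090962, plus strand): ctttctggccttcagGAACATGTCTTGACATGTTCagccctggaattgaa

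The element had 1 mismatch in Ccng1 and in Cdkn1a, and 2 in Zfp365 and in Bax, where the spacer was 1 base. Ccng1 and Zfp365 were more than 2-fold below WT on both direct arrays, and Cdkn1a, with as few mismatches as Ccng1, was above WT on array A. Over the p53 targets, the median of the mean direct ratio was -0.40 for 15 genes with a match and -0.22 for 39 without, as a description. The lists did not share this: for stress and repair targets it was -0.17 for 7 with a match and -0.454 for 15 without. On array B the values of all targets were -0.224 with a match and -0.232 without, so the difference lay on array A (-0.629 and -0.205). A match is no evidence of binding, and the window leaves out the introns and distal elements where other p53 sites lie.

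Genes of absorptive colonocytes, the cells that take up water, salt and nutrients at the surface, lay below WT with few exceptions. Of 35 tested members 34 had a fitted value below 0, with a median of -0.57. In all 4 ratios 26 were below WT, against 13.3% of all genes. On the direct arrays 38 of 41 measured members (92.7%) were below WT on both and 0 above on both. Over all genes these shares were 20.8% and 24.8%. The medians of the tested members were -0.65 on array A, -0.71 on array B, and -0.43 in both fitted replicates. Fabp2, the intestinal fatty acid binding protein, was the lowest at -2.09 and -1.49 on the direct arrays (fitted -1.79, SE 1.05). Its loop replicates were far apart, at 0.11 and -3.69, although the direct arrays were close. Tmigd1, an adhesion protein of the brush border, was at -1.91 and -1.14 (fitted -1.52, SE 0.49). Prap1 was at -1.63 and -0.95, and Slc26a3, the chloride and bicarbonate exchanger, at -0.55 and -2.06.

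Guca2a, which encodes guanylin, was at -0.75 on array A and -1.02 on array B (fitted -0.88, SE 0.18). Car4, a membrane carbonic anhydrase, was at -1.08 and -1.09 (fitted -0.79, SE 0.26), and Car1 at -0.66 and -0.70 (fitted -0.49, SE 0.20). Muc3, a membrane mucin of the brush border, was at -1.09 and -0.71 (fitted -0.70, SE 0.17), Cdhr2, a cadherin that links microvilli, at -0.80 and -0.56 (fitted -0.68, SE 0.18), and the water channel Aqp8 at -0.53 and -0.94 (fitted -0.49, SE 0.30). These 6 genes were below WT in every pairing. The highest member was Car2, at 0.12 and -0.08 (fitted 0.04, SE 0.18). The median of the list stayed below 0 but moved with the arrays used and the members they could measure. It was -0.125 on the 4 indirect arrays alone, through KOWI (20 members). With 1 WT or KO sample left out it was between -0.374 and -0.247 (23 to 25 members). The fit that ignores the sharing of samples called 7 of the 35 below WT and 0 above, against 1.62% and 4.73% of all genes.

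Brush border transporters and peptidases, most of them better known from small intestine, gave a fitted median of -0.58, with 19 of 22 tested members below 0. Cubn, the receptor for intrinsic factor with vitamin B12, was the lowest at -3.10 on array A and -1.05 on array B (fitted -1.996, SE 0.38). Enpep, aminopeptidase A, was at -1.97 and -0.80 (fitted -1.38, SE 0.37), and Slc6a19, a neutral amino acid transporter, at -0.68 and -1.66 (fitted -1.03, SE 0.16). Not all members shared this direction. The nucleoside transporter Slc28a3 was the highest, at 1.04 and 0.89 (fitted 0.91, SE 0.34), above WT in all 4 ratios. The list's median was -0.188 on the indirect arrays alone and -0.38 without KO replicate 2.

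Enzymes of phase I metabolism, which oxidise or hydrolyse lipids and foreign compounds, lay below WT for 24 of 27 tested members (median -0.42). On the direct arrays 28 of 34 (82.4%) were below on both, and 2 above on both. Over all genes these shares were 20.8% and 24.8%. Cyp2b10 was the lowest at -2.23 and -1.57 (fitted -1.90, SE 0.56). The carboxylesterases of the Ces2 cluster were all below WT in all 4 ratios, with fitted values of -1.80 for Ces2e, -1.43 for Ces2b, -1.34 for Ces2c, -0.60 for Ces2g, -0.55 for Ces2f and -0.42 for Ces2a. The cluster's genes are close paralogs, and how far 1 probe reads its neighbours' transcripts was not tested. Aldh1a1, which makes retinoic acid as Aldh1a3 does, was at -1.44 and -1.02 (fitted -1.23, SE 0.29), opposite to Aldh1a3. Cyp4b1 was at -3.01 on array A and -0.33 on array B, a wide gap. Cyp1a1, the classic target of the aryl hydrocarbon receptor, was the highest at 0.71 and 0.99 (fitted 0.75, SE 0.25). The list's median was -0.175 on the indirect arrays alone and -0.157 without KO replicate 2.

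Phase II enzymes, which conjugate compounds for export, were mixed: 14 of 21 tested members were below 0 (median -0.24), a sign kept in 18 of 20 alternative settings and lost on the indirect arrays alone (0.0692) and without WT replicate 2 (0.0516). Ugt2b5, a glucuronosyltransferase, was the lowest at -3.28 and -0.82 (fitted -1.95, SE 0.30), and Sult1b1, a sulfotransferase, was at -0.95 and -0.66 (fitted -0.75, SE 0.21). The 5 measured glutathione transferases of the mu class (Gstm1, Gstm2, Gstm3, Gstm4 and Gstm6) were above WT on both direct arrays, with Gstm1 the highest of the list at 0.62 and 0.33 (fitted 0.39, SE 0.19) and Gstm2 at 0.67 and 0.36 (fitted 0.37, SE 0.20). These are paralogs with the same limit. The probe named for Gstm1 is placed on mm9 chromosome 5, while those of Gstm2, Gstm3, Gstm4 and Gstm6 are placed on chromosome 3. Which transcript the Gstm1 probe reads was not checked. In the list of fatty acid oxidation and ketogenesis all 19 tested members were below 0, by a small amount (median -0.19, and -0.0104 on the indirect arrays alone). The nuclear receptor Ppara, which drives this programme, was at -0.69 and -0.57 (fitted -0.64, SE 0.18). Plin2, a lipid droplet coat protein, was the highest at 0.05 and -0.40.

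**Figure D3:**
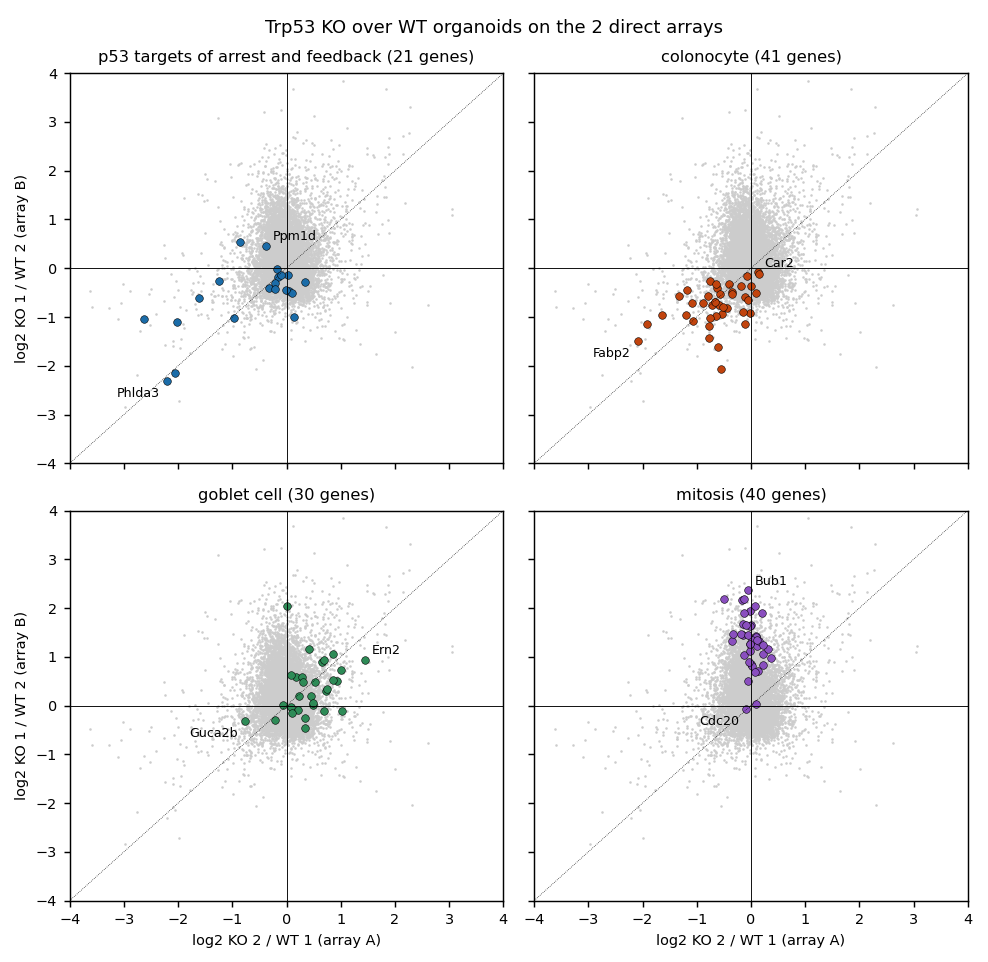
Log2 KO over WT on array A (x axis) against array B (y axis), with all genes in grey and 4 lists coloured, 1 in each panel, where the members with the highest and lowest mean are named. Of the p53 targets of arrest 14 of 21, and of colonocyte genes 38 of 41, fall below 0 on both axes, goblet cell genes mostly above 0 on both, and mitosis genes form a column at array A values near 0 (median -0.02) with array B values centred on 1.33.

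Most tested genes of secretory cells lay on the other side of WT. Goblet cells make the mucus layer. Of 22 tested goblet cell members 21 had a fitted value above 0, with a median of 0.47. In all 4 ratios 16 were above WT and 0 below, against 20.6% and 13.3% of all genes. The medians of the tested members were 0.49 on array A, 0.49 on array B, 0.69 in replicate 1 and 0.32 in replicate 2. Over the 30 members measured on the direct arrays, the medians were 0.433 and 0.31. Of these 30, 20 (66.7%) were above WT on both, against 24.8% of all genes. Across the alternative settings the median of the list ran from 0.20 to 0.64. The list holds 7 tested transcription factors of secretory cells. Atoh1, which commits cells to a secretory fate, was at 0.01 on array A and 2.04 on array B (fitted 0.98, SE 0.20), so its value rests on array B. Gfi1, which acts downstream of Atoh1, was at 0.87 and 1.06 (fitted 0.91, SE 0.19), and Spdef, which drives goblet cell maturation, at 1.00 and 0.73 (fitted 0.75, SE 0.23). Foxa3 was at 0.69 and 0.94 (fitted 0.60, SE 0.18), Creb3l1 at 0.65 and 0.89 (fitted 0.77, SE 0.24), Creb3l4 at 0.42 and 1.15 (fitted 0.78, SE 0.23) and Foxa1 at 0.28 and 0.58 (fitted 0.34, SE 0.27).

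Ern2, the stress sensor of mucus-secreting cells, was the highest, at 1.45 and 0.94 (fitted 1.09, SE 0.46). Agr2, a disulfide isomerase needed for mucin folding, was at 0.93 and 0.51 (fitted 0.48, SE 0.16), and Spink4 at 0.85 and 0.53 (fitted 0.60, SE 0.19). The gel-forming mucin Muc2 was at 0.21 and -0.10 (fitted 0.08, SE 0.17), Tff3 at 0.23 and 0.20 (fitted 0.22, SE 0.16), and Zg16, the lowest, at 0.35 and -0.45 (fitted -0.05, SE 0.21). Over the 16 tested members whose probe had a mean log2 intensity under 14, the median was 0.57. The fit that ignores the sharing of samples called 9 of the 22 above WT, against 4.73% of all genes.

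The list of deep crypt secretory cells, the colon's counterpart of Paneth cells, shares Agr2, Spink4 and Atoh1 with the goblet list. All 8 tested members were above 0 (median 0.71, and 0.405 without KO replicate 1). Of 10 members measured on the direct arrays, 7 were above WT on both and 2 (20.0%) below on both. Over all genes these shares were 24.8% and 20.8%. Muc1 was at 0.60 and 1.28 (fitted 0.83, SE 0.24), Lyz1 was the highest, and the matrix protease Mmp7 the lowest at -0.82 and 1.07 (fitted 0.05, SE 0.59). Enteroendocrine genes were above 0 for 12 of 13 tested members (median 0.45), with medians of 0.77 on array A and 0.48 on array B. The median was 0.172 on the indirect arrays alone (10 members) and 0.259 without WT replicate 1. Over the 21 members measured on the direct arrays the medians were 0.435 and 0.231. Of these 21, 9 (42.9%) were above WT on both, against 24.8% of all genes. The lineage factors Insm1, at 1.17 and 0.81 (fitted 0.97, SE 0.20), and Neurod1, at 0.77 and 1.22 (fitted 0.93, SE 0.22), were above WT in every pairing. So were the granule proteins Chgb, at 1.90 and 0.73 (fitted 0.84, SE 0.31), and Scg2, at 1.76 and 0.90 (fitted 1.35, SE 0.28). Tac1, which encodes substance P, was the highest but rested on KO 1, at 0.36 on array A and 2.64 on array B (fitted 1.50, SE 0.91). Pcsk1, the prohormone convertase, was the lowest at -1.58 and 0.31 (fitted -0.60, SE 0.27).

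Tuft cell genes were few on these arrays. Only 7 of 25 members were tested, with a median of 0.32, or 0.0558 without KO replicate 1. Cd24a was the highest at 0.80 and 1.48 (fitted 1.14, SE 0.58) and Fyb the lowest at -0.18 and -0.01 (fitted -0.12, SE 0.36). Dclk1, the usual tuft cell marker, was at -0.01 and -0.32.

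**Figure D4:**
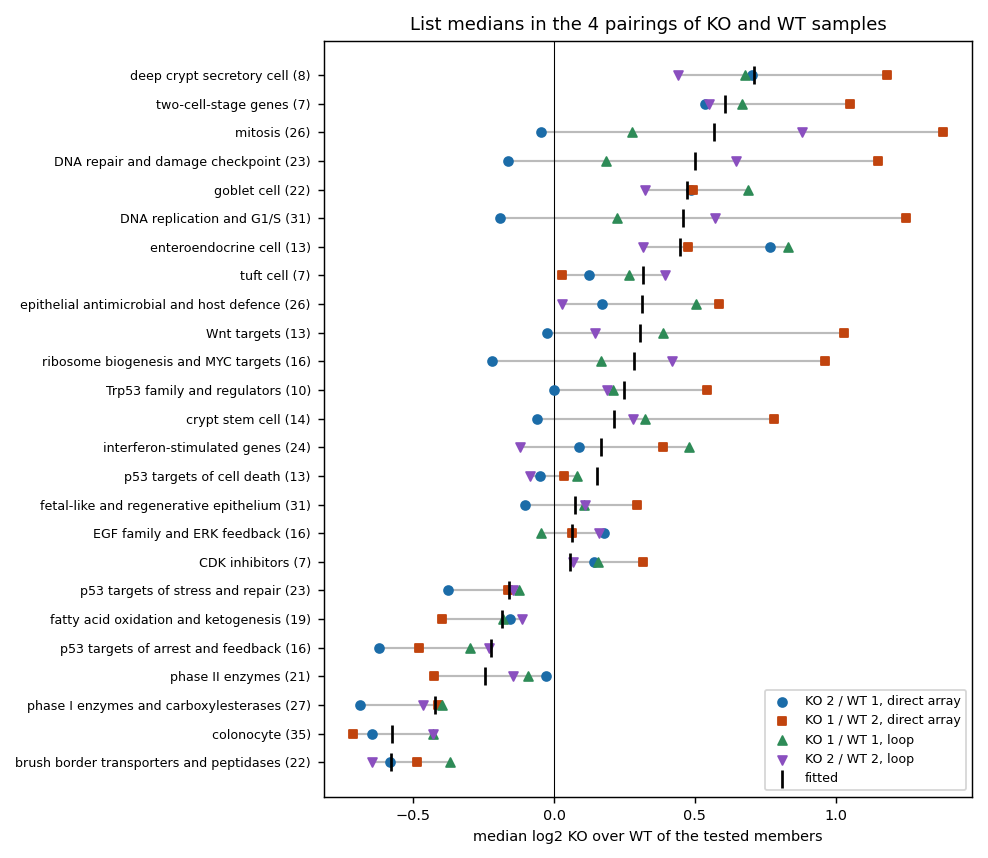
Median log2 KO over WT of the tested members of each list (number tested in brackets), for the 4 pairings of KO and WT samples (coloured) and for the fitted values (black ticks). Colonocyte, brush border and phase I lists lie left of -0.3 in all 4 pairings, goblet and deep crypt secretory lists right of 0.3, and the mitosis, replication and repair lists spread from near or below 0 on array A to above 1 on array B.

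Genes of epithelial defence did not share a direction. Of 26 tested members 17 were above 0 and 9 below (median 0.31, from 0.139 without KO replicate 1 to 0.726 without WT replicate 2). In all 4 ratios 12 were above WT and 7 below, against 20.6% and 13.3% of all genes. The 12 members above WT in all 4 ratios included Reg3b, Slpi, an inhibitor of leukocyte proteases, at 1.81 and 1.67 (fitted 1.74, SE 0.45), the chemokine Cxcl1, at 1.87 and 1.00 (fitted 1.32, SE 0.30), and Nos2, at 1.12 and 0.76 (fitted 0.90, SE 0.49). Cxcl5 was at 0.11 on array A and 3.67 on array B (fitted 1.86, SE 0.19). The serum amyloid genes were below WT: Saa3 was the lowest at -1.64 and -0.07 (fitted -0.74, SE 0.29), Saa2 was at -0.89 and -0.72 (fitted -0.57, SE 0.23) and Saa1 at -0.71 and -0.75 (fitted -0.48, SE 0.18). Saa1 and Saa2 are near-identical, so their probes may read both.

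Interferon-stimulated genes lay on different sides of WT in the fitted replicates. Their median was 0.48 between the replicates 1 and -0.12 between the replicates 2 (24 tested members, fitted median 0.17, -0.142 without KO replicate 1 and 0.613 without KO replicate 2). Cxcl10 was the highest, at 0.91 and 1.86 (fitted 1.28, SE 0.19), and Ddx60 the lowest, at -0.55 and -0.59 (fitted -0.53, SE 0.23).

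Genes of the 2-cell embryo stage, which mark a transient early embryonic state in cultured stem cells, were measured above WT. All 7 tested members were above 0 (median 0.61, between 0.251 and 2.09 in the alternative settings). Of the 7, 4 passed the filter through KO or KOWI and not through WT, so this count is favoured by the filter, and the median of the members well above background in every organoid channel was 0.251 (3 members). On the direct arrays 8 of 9 (88.9%) were above WT on both, against 24.8% of all genes. The medians of these 9 members were 1.00 on array A and 1.80 on array B. Zscan4c, the highest by the fit, was at 1.15 and 2.11 (fitted 1.43, SE 0.16), Zscan4a at 1.21 and 1.80 (fitted 1.30, SE 0.18) and Zscan4f, without a loop fit, at 1.48 and 2.46. Tcstv3 was at 1.87 and 2.48, and the related Tcstv1 was the lowest at 0.19 and -0.45 (fitted 0.02, SE 0.22), with a probe not well above background in any WT channel. The Zscan4 genes are near-identical copies in a cluster, so their probes may not be separate measurements. The probe of Zscan4c was well above background in 2 of 4 WT channels and 4 of 4 KO channels.

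Stem cell and Wnt target genes gave different answers on the 2 arrays. The median of 14 tested crypt stem cell genes was -0.06 on array A and 0.78 on array B (fitted 0.21), and that of 13 tested Wnt targets was -0.03 and 1.03 (fitted 0.31). Over all measured members, 24 and 21, the medians were -0.00517 and 0.335 for stem cell genes and 0.036 and 0.793 for Wnt targets. Without KO replicate 1 these fitted medians were 0.093 and 0.147. Lgr5, the R-spondin receptor that marks crypt base stem cells, was above WT in every pairing, at 0.66 on array A, 2.34 on array B and 1.50 in both fitted replicates (fitted 1.50, SE 0.19). Smoc2, the highest stem cell gene, shared this. Ror2, a Wnt receptor, was the highest Wnt target at 0.97 and 2.53 (fitted 1.75, SE 0.23). Other members were above WT on array B but not on array A. Ascl2, a stem cell transcription factor, was at -0.13 and 1.59 (fitted 0.73, SE 0.68), Axin2, a feedback inhibitor of Wnt signalling, at -0.08 and 0.99 (fitted 0.31, SE 0.21), and Sox9 at -0.41 and 1.29 (fitted 0.35, SE 0.18). The lowest were Tnfrsf19 among stem cell genes, at 0.08 and -0.09, and Cdx2 among Wnt targets, at -0.03 and -0.18 (fitted -0.10, SE 0.26).

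Cell cycle genes were split between the arrays. On array B 39 of 40 measured mitosis genes were above WT, with a median of 1.33, and on array A 18 of 40, with a median of -0.02. Of all 14159 genes, 7943 were above WT on array B and 6781 on array A. Bub1, a kinase of the spindle checkpoint, was at -0.06 on array A and 2.37 on array B. Ttk was at -0.12 and 2.18 (fitted 0.90, SE 0.27), Foxm1, the transcription factor of G2 and mitosis, at -0.16 and 2.16 (fitted 0.83, SE 0.26), and Mki67, the proliferation marker Ki-67, at -0.18 and 1.47 (fitted 0.50, SE 0.42). KO 1 exceeded WT 2 by more than 2-fold for each of these genes, while KO 2 and WT 1 were close. The fitted median of 26 tested members was 0.57, with 25 above 0. Nusap1 was the highest (0.21 and 1.89, fitted 1.05, SE 0.34) and Cdc20 the lowest (-0.09 and -0.07, fitted -0.04, SE 0.17). Without WT replicate 2 the median was 0.129, without KO replicate 1 it was 0.299, and on the indirect arrays alone 0.206.

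DNA replication genes showed the same split. Of 37 measured members 35 were above WT on array B and 6 on array A, with tested medians of 1.25 and -0.19 (31 tested, fitted 0.46). Uhrf1, which maintains DNA methylation at the fork, was the highest at -0.33 and 2.42 (fitted 0.99, SE 0.30), and the replicative helicase gene Mcm6 was at -0.54 and 1.90 (fitted 0.68, SE 0.42). Ccnd2, cyclin D2, was the lowest and was below WT on both, at -0.57 and -0.20 (fitted -0.33, SE 0.19). DNA repair and checkpoint genes had medians of -0.16 and 1.15 (23 tested, fitted 0.50), from Exo1, a resection nuclease, at -0.22 and 2.33 (fitted 1.05, SE 0.42) down to Mgmt. Ribosome biogenesis genes had medians of -0.22 and 0.96 (16 tested, fitted 0.28), with Nolc1 the highest at 0.05 and 1.36 (fitted 0.47, SE 0.39) and Utp20 the lowest at 0.04 and 0.27 (fitted 0.08, SE 0.21). Without WT replicate 2 the medians of replication, repair and ribosome biogenesis genes were 0.132, 0.199 and -0.0682, and without KO replicate 1 that of ribosome biogenesis genes was 0.0118.

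The values of the mitosis genes were also taken on each of the 6 organoid arrays as hybridised. The median Cy5 over Cy3 of the mitosis genes was -1.33 for WT 2 over KO 1 and -0.56 for WT 2 over KOWI 1, and between -0.35 and 0.05 on the 4 arrays without WT 2. Both arrays with WT 2 were the lowest. All 6 arrays carried a replicate 2 sample in Cy5, so dye and replicate number cannot be told apart here either. Whether the WT 2 culture or the dye set these values was not tested.

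**Figure D5:**
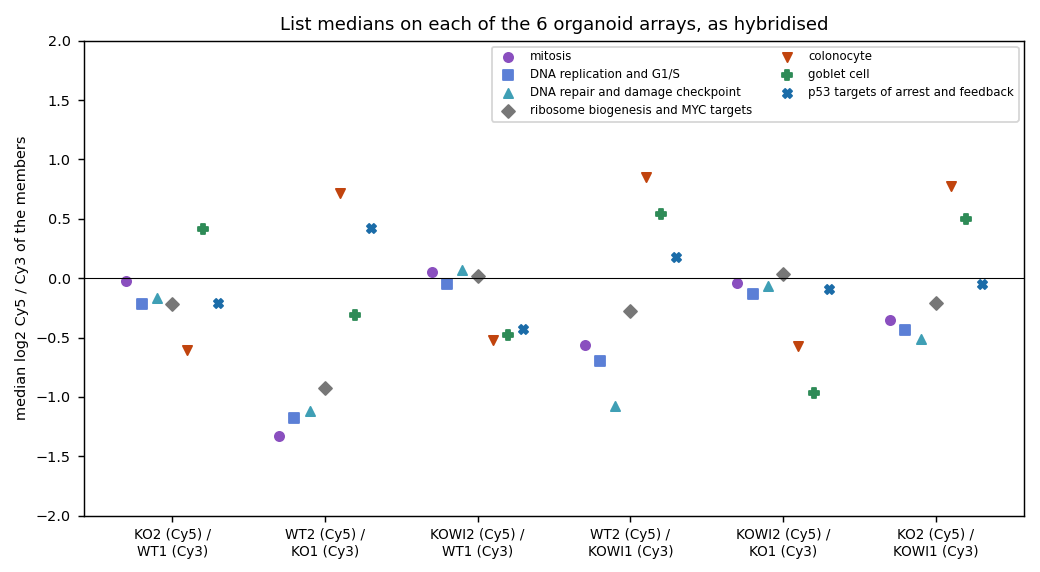
Median log2 Cy5 over Cy3 (y axis) of the members of 7 lists on each of the 6 organoid arrays (x axis), with the sample in each channel named and no change of sign. Mitosis genes are lowest on both arrays with WT 2, at -1.33 and -0.56, while colonocyte genes change sign with the orientation of the 4 arrays that carry WT.

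The CHR element (TTTGAA, on either strand) was found in 23 of 32 mitosis promoters (71.9%), against 20.2% of all RefSeq promoters in the same window and 15.7% of genes with both direct ratios. The 4 shown are from mitosis genes that were close to WT on array A and above it on array B. Capitals mark the element.

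Mki67 (chr7:135716475-135716510, minus strand): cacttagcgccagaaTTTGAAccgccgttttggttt
Top2a (chr11:99024348-99024383, minus strand): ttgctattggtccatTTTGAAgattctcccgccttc
Cdk1 (chr10:69352963-69352998, minus strand): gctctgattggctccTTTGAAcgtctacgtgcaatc
Prc1 (chr7:80294431-80294466, plus strand): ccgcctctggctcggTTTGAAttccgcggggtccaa

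Top2a, a topoisomerase, was at -0.02 on array A and 1.27 on array B (fitted 0.43, SE 0.34), Cdk1, the mitotic kinase, at 0.10 and 1.41, and Prc1, which bundles spindle microtubules, at 0.11 and 1.33 (fitted 0.72, SE 0.65). The mean direct ratio had a median of 0.68 in 23 mitosis genes with the element and 0.78 in 9 without it, so its presence did not sort the members of the list.

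Lists of growth factor signalling and of the regenerative state had fitted medians close to that of all genes. The EGF family and its feedback genes had a median of 0.06 (16 tested), with Ereg far below the rest. Of the related ligands, Areg lay on opposite sides of WT on the direct arrays, at 0.31 and -0.65 (fitted -0.14, SE 0.22). Btc was above WT on both, at 0.27 and 0.61 (fitted 0.33, SE 0.18). Phlda1, a feedback gene, was the highest at 0.53 and 0.29 (fitted 0.37, SE 0.17). Genes of fetal-like and regenerating epithelium had a median of 0.08 (31 tested, and -0.0332 without WT replicate 2). In all 4 ratios 9 were above and 5 below WT, against 20.6% and 13.3% of all genes. Ereg was the lowest, and Spp1, osteopontin, the highest at -0.11 and 3.24 (fitted 1.26, SE 0.61). Tubb2b, at 0.75 and 0.86 (fitted 0.69, SE 0.17), and Anxa1, at 0.45 and 0.65 (fitted 0.60, SE 0.17), were above WT in every pairing, and Anxa10, at -0.62 and -0.74 (fitted -0.64, SE 0.17), below. Ly6a, which encodes the regeneration marker Sca-1, was at 0.16 and 0.19 (fitted 0.17, SE 0.23), within its standard error of WT.

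Among the genes lost to outlier spots, 3558 had both direct ratios and were well above background in KO or in WT on both direct arrays. Of these, 18 (0.506%) were beyond 2-fold above WT on both direct arrays and 5 (0.141%) below. Above WT were Fn1, fibronectin, at 1.04 on array A and 3.85 on array B, Bex1 at 2.14 and 2.34, the complement component C3 at 1.49 and 2.35, and AF067061 at 1.83 and 1.46. The predicted genes Gm4340, at 2.27 and 2.78, and Gm13043, at 2.15 and 2.72, stood with Tcstv3 and Zscan4f. All 5 below WT were Dglucy, the homeobox gene Rhox5 at -1.99 and -2.72, the butyrophilin-like gene Btnl1 at -2.52 and -1.16, Gm52298 at -1.26 and -1.33, and the class I histocompatibility gene H2-Q1 at -1.17 and -1.16. These genes have 2 values each and no test over the loop.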

How the data were processed

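RNA of 6 organoid samples was measured on 6 of the series' 2-colour Agilent arrays (62976 spots, of which 3671 are controls), 2 of them direct comparisons of KO with WT. Per the file headers, the authors deposited scanner output of Feature Extraction 12.2.0.7 with protocol GE2_1200_Dec17 and probe positions on mm9, holding spot intensity in both channels and a log10 ratio of Cy5 over Cy3. A table of log2 ratios was deposited as well, and limma is named in the submitters' processing notes. Against the scanner ratio its slopes were 0.970 to 1.00 and its correlations 0.964 to 0.998, so direction and scale were settled, while its centring (array medians of -0.0147 to 0.0167) is not given in the sources used here.

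Spot means were corrected with normexp (offset 50) and normalised within each array by loess, in R 4.3.3 with limma 3.58.1. Control spots and spots called outliers were left out. Spots of a probe were averaged and the probe with the brightest mean was kept for each gene. Genes were tested where all channels of WT, of KO or of KOWI were well above background. Least squares turned the 6 ratios into 6 sample values, and limma fitted group and replicate number (which is also the dye), with Benjamini-Hochberg adjustment at 0.05. The replicate number is a term because of the dye, and the labels do not tie same-numbered samples to 1 animal. Fold changes are on the log2 scale of corrected intensity, which shrinks those of dim genes. Slide and scan day were the same for all organoid arrays, per the file headers.

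Named genes were Trp53, list members by role with the highest and lowest of each list, and the 12 highest and 12 lowest by fitted value among genes beyond 1 (log2) in all 4 ratios. Genes without a loop fit but well above background in KO or in WT on both direct arrays added up to 8 highest and 8 lowest beyond 1 on both. A few genes that this rule names are not reported here. Members and lists were chosen with earlier results of these data known. The procedure was tested on simulated data. Alternatives changed the background correction, the scaling, the filter, the probe choice, the arrays used and the samples included. Many of them also changed which members of a list could be measured, so list medians under different settings can cover different genes.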

Additional observations from a re-analysis of the deposited data

Results flagged for a closer look

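In the series' other KO comparison, whole colon of 2 pairs of mice 2 months after 2% DSS, where Trp53 had been lost through Axin2CreERT2, 7 of the 24 lists compared and 13 of the 20 named genes compared lay on the other side of WT from organoids, in both replicates of each. The differences were not tested, and the tissue holds many other cell types. No such share over all genes is given, so the counts do not show how unusual these differences are. The named genes were chosen for their large organoid ratios, so only their side in tissue was free to vary. Several tissue values, such as those of Zmat3, Phlda3 and Smoc2 in pair 2, were close to WT. Values are log2 KO over WT for the loop replicates 1 and 2 of organoids, then for the mouse pairs 1 and 2.

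Among list medians over genes measured in both, goblet cell genes (21) were at 0.627 and 0.294 in organoids against -0.327 and -0.156 in tissue. Deep crypt secretory genes (7) were at 0.522 and 0.444 against -0.192 and -0.132, and enteroendocrine genes (12) at 0.833 and 0.324 against -0.467 and -0.393. The 3 secretory lists thus lay above WT in organoids and below it in tissue. Mitosis genes (24) were at 0.281 and 0.881 against -0.00564 and -0.0676, replication genes (29) at 0.223 and 0.57 against -0.194 and -0.0228, and repair genes (22) at 0.174 and 0.645 against -0.142 and -0.0709. The tissue values of the mitosis list were close to 0. The Trp53 family and its regulators (10) were at 0.208 and 0.188 against -0.206 and -0.0516.

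Of the genes above WT in organoids, Cdkn2a was at 1.58 and 1.81 against -1.5 and -0.492 in tissue, and Smoc2 at 3.03 and 1.29 against -0.259 and -0.025. The histone gene H2bu2 was at 1.81 and 1.37 against -1.35 and -0.152, and 3110040M04Rik at 1.69 and 1.98 against -0.557 and -0.495. Of the p53 targets, Ccng1 was at -1.06 and -3.14 against 0.1 and 0.45, Phlda3 at -1.17 and -3.36 against 0.419 and 0.0352, Psrc1 at -1.93 and -1.67 against 0.247 and 0.139, Zmat3 at -1.42 and -1.55 against 0.191 and 0.0287, and Zfp365 at -2.03 and -1.89 against 0.837 and 0.316. These 5 targets, which were chosen as more than 2-fold below WT in organoids, were at or above WT in both tissue pairs. Ereg was at -2.31 and -3.48 against 1.14 and 0.397, Mgmt at -2.43 and -1.81 against 0.857 and 0.147, Tmigd1 at -2.01 and -1.04 against 0.746 and 0.0563, and 1700007K13Rik at -1.78 and -1.66 against 1.44 and 0.14.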

How the results depend on the processing

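Among 9919 genes limma called 0 (544 at an unadjusted p under 0.05). It called 630 with the 6 arrays as independent (469 higher, 161 lower; 2305 unadjusted), which leaves out the sharing of samples, and 1, Reg3b, with probes under a log2 intensity of 14 or with the mean over probes. Reg3b was also the 1 gene called by a filter on WT or KO alone, and 0 of 11363 were called with any fittable probe; both were added after seeing the data. Leaving out a sample gave 0 to 12 calls: 1 without WT replicate 1 (Ereg), 12 without KO replicate 1 (3 higher, 9 lower), 1 without KOWI replicate 1 and 0 without WT 2, KO 2 or KOWI 2 (182, 119 and 615 unadjusted), where a lone sample is assumed to vary like the other groups. The other alternatives with a test called 0, with 218 to 712 genes at an unadjusted p under 0.05. Without the replicate block 0 genes were called (371 unadjusted), and no estimate can change, since each group holds both replicate numbers. The 4 indirect arrays alone were not tested. Genes beyond 2-fold above WT in both replicates numbered 39, against 17 on the indirect arrays, 121 with the scanner software's ratio and 147 with the authors' ratio. Below WT they numbered 23, against 15 on the indirect arrays and 12 with every channel above background, and 15 to 25 without 1 KOWI sample. The median of all genes was 0.0539, and 0.0612 with median centring, 0.0285 with the scanner software's ratio and 0.0308 with the authors' ratio.

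Of 2458 values of the 135 genes followed under alternatives, 2399 kept their sign. Of the others, on the indirect arrays Agr2 was at -0.00205, Cdc20 0.0541, Cdkn1a 0.0479, Chgb -0.102, Mmp7 -0.0858, Plin2 0.276, Saa1 0.0142 and Utp20 -0.0577. On the direct arrays Tcstv1 was at -0.131 and Hes1 at -0.00824, and with the 6 arrays as independent Tnfrsf19 at 0.0224. Median centring gave Cdx2 0.0595, Hes1 -0.0257, Tcstv1 -0.0396 and Zg16 0.102. The scanner's ratio gave Car2 -0.0232 and Hes1 -0.0306, and the authors' ratio Car2 -0.00142, Tnfrsf19 0.0803 and Zg16 0.0541. With outliers kept, Tnfrsf19 was at 0.0816 and Zg16 at 0.0159, and with the mean over probes Cdc20 at 0.0731, Mmp7 -0.0989, Muc2 -0.0121 and Tnfrsf19 0.148. With each sample left out in turn, the ranges that crossed 0 were Areg -0.291 to 0.0308, Car2 -0.104 to 0.205, Cdc20 -0.111 to 0.0844, Cdkn1a -0.442 to 0.0654, Cdx2 -0.104 to 0.0149, Foxa1 -0.0546 to 0.639, Fyb -0.786 to 0.537, Hes1 -0.366 to 0.465, Mcm6 -0.0745 to 0.678, Mmp7 -0.564 to 0.601, Muc2 -0.0412 to 0.228, Nolc1 -0.0249 to 0.742, Plin2 -0.175 to 0.0946, Ppm1d -0.167 to 0.229, Tcstv1 -0.208 to 0.407, Tnfrsf19 -0.00419 to 0.167, Top2a -0.0371 to 0.714 and Utp20 -0.228 to 0.325. The cause was not tested.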

Other observations

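Glycolysis genes split between the direct arrays. Of 21 glycolysis genes measured on both, 20 were above WT on array A (median 0.213) and 3 on array B (median -0.253). Of all 14159 genes, 6781 were above WT on array A and 7943 on array B. Respiratory chain genes had medians of -0.0305 and -0.203, with 16 of 32 (50.0%) below WT on both arrays, against 20.8% of all genes. Among NRF2 targets, the genes of glutathione synthesis and redox defence, 12 of 21 (57.1%) were below WT on both. Gclc, the rate-limiting enzyme of glutathione synthesis, was at -0.40 on array A and -0.72 on array B (fitted -0.43, SE 0.16), and Srxn1, sulfiredoxin, at -0.37 and -0.57 (fitted -0.47, SE 0.18). Hmox1, heme oxygenase and a target of the same factor, had no loop fit and was at 0.35 and 0.70. Ldhb, a lactate dehydrogenase subunit without a loop fit, was at 0.94 and 0.87.

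Among signalling genes, Tgif2, a repressor in TGF-beta signalling, was at 0.73 on array A and 1.99 on array B (fitted 1.36, SE 0.17). The Notch target Hes1, which represses Atoh1, was on opposite sides of WT, at -1.27 and 1.25 (fitted 0.03, SE 0.37). Of YAP targets, 11 of 23 (47.8%) were above WT on both arrays, against 24.8% of all genes. Among 14 immediate early genes, which respond within minutes to growth factors or handling, 13 were above WT on array A (median 0.346) and 7 on array B (median -0.108). Genes of the unfolded protein response were above WT on both arrays for 11 of 22 members (50%), against the same 24.8%.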
